A study of Arabidopsis thaliana with 12 samples.

Results

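The genes described here are nuclear genes of Arabidopsis for 4 enzymes that are imported into the plastid and work there on the assimilation of sulfate or the synthesis of amino acids. They are AT3G58610, for ketol-acid reductoisomerase, CBL (AT3G57050), for cystathionine beta-lyase, AT-HF (AT4G26900), for a histidine synthesis enzyme, and APS4 (AT5G43780), for an ATP sulfurylase. They were chosen by name, with earlier results of these data known. Each has 1 probe annotated to that gene alone, so all 4 were measured, out of 691 genes with such a probe and 3439 probes in all. No member was listed at an intensity of 0 in any sample, and no filter on low values was applied.

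The study measured total RNA on arrays in 12 samples of Arabidopsis thaliana, all wild type and of the ecotype Wassilevskija. In 6 of them the plants had been treated with water, for a time the labels do not give. In the other 6 they had spent 6 h in MS medium that held sucrose at 60 mM. This medium, named after Murashige and Skoog, is a mixture of mineral salts for plant tissue culture that includes nitrate, ammonium and sulfate. Treated and water samples therefore differ by the salts as well as by the sugar, and possibly by time, and these cannot be told apart. The labels give neither organ nor age, and do not say what the numbers 1 to 6 of the samples mean. The fixed lists of root, leaf and seed markers held 12 genes, of which 0 had a probe of their own, so the organ could not be checked. Whether the 6 samples of a group are separate plants or cultures is not stated, and the p-values measure just the spread between them, which may be technical.

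Plastids make most amino acids of a plant cell. Ketol-acid reductoisomerase acts in the pathway shared by valine, leucine and isoleucine, where it turns acetohydroxy acids into the substrates of dihydroxyacid dehydratase. Cystathionine beta-lyase splits cystathionine into homocysteine, the precursor of methionine. The enzyme of AT-HF, imidazole glycerol phosphate synthase, adds nitrogen from glutamine in the histidine pathway and releases an intermediate of purine synthesis. ATP sulfurylase joins sulfate to ATP, the entry step of sulfate assimilation, which supplies the sulfur of cysteine and, through cystathionine, of methionine. In Arabidopsis it is encoded by a small gene family of which APS4 is a member, and whether the APS4 probe also binds RNA of its relatives was not tested.

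The deposited values are linear intensities in arbitrary units, without a stated zero or scaling, and precision is limited by how many arrays there are. Sample medians over all probes were 0.171 to 0.188 in water and 0.309 to 0.339 after MS with sucrose, so the middle of the array was brighter in the treated samples. The mean over all probes differed less, at 0.943 ± 0.0142 (SD, n = 6) in the water group and 0.986 ± 0.0175 (SD, n = 6) in the treated group, and 5 to 8 probes per sample sat at the ceiling of the scale in water against 2 to 4 in the treated samples. Differences are therefore given on a log2 scale after quantile normalization, which gives the 12 samples a common distribution, and beside it on the deposited scale. Both use log2(intensity + 0.0718), which understates the change of dim probes. A difference after normalization is relative to the other probes. The test was limma over all 3439 probes, with Benjamini-Hochberg adjustment and a threshold of 0.05. In such bulk RNA, fewer cells that express a gene and less of its RNA per cell cannot be told apart.

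The 4 genes did not move together. The ketol-acid reductoisomerase gene rose to 3.61 times its mean intensity in water. The histidine gene AT-HF was 1.86 times as bright as in water. CBL, at 1.22 times, and APS4, at 0.981 times, had means nearer to those in water, and neither was called on the deposited scale. After quantile normalization 1 of the 4 genes was called higher, 1 lower, and the other 2 missed the threshold. On the deposited scale 2 were called higher and 0 lower. Over all 3439 probes 37.5% were called after quantile normalization, 18.1% as higher and 19.3% as lower, and 51.1% were called on the deposited scale, 44.2% as higher and 6.89% as lower. A count of 2 calls in 4 genes is thus near the background on either scale. The median difference of the 4 genes was -0.18 after quantile normalization, where that of all probes was 0.00431, and 0.47 on the deposited scale, where that of all probes was 0.38.

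**Figure D1:**
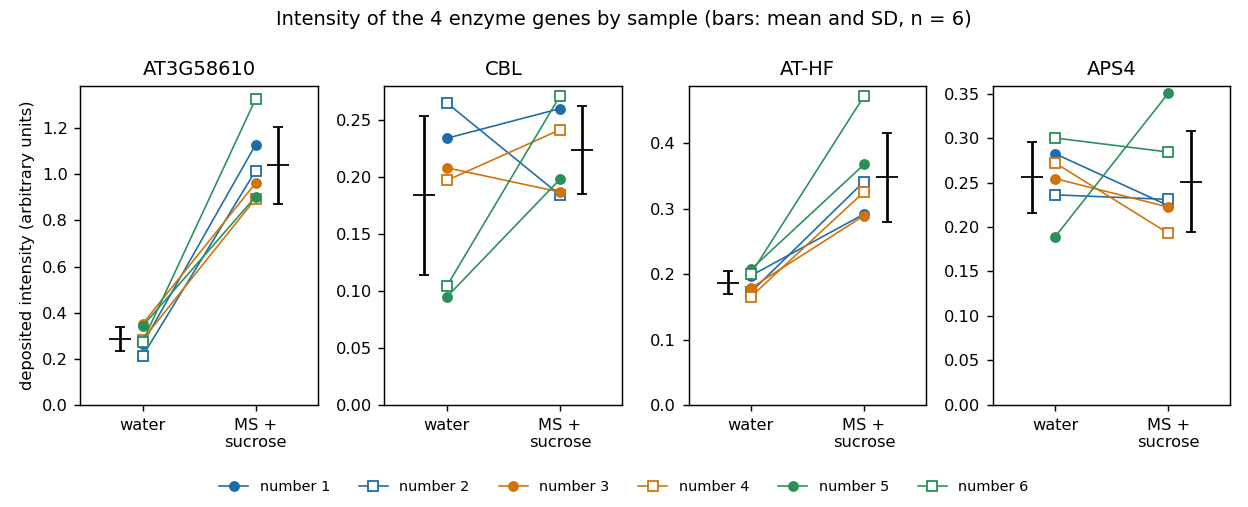
Deposited intensity (arbitrary units, linear axes from 0, a different range in each panel) of AT3G58610, CBL, AT-HF and APS4 in 6 water samples and 6 samples kept in MS with sucrose. Lines join samples of the same number, colours mark the numbers 1 and 2, 3 and 4, and 5 and 6, and black bars give mean and SD. AT3G58610 and AT-HF are brighter in each sample with MS and sucrose than in any water sample, as are 29.5% of all probes. CBL is lowest in water samples 5 and 6, and the APS4 groups overlap.

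The ketol-acid reductoisomerase gene AT3G58610 had the largest difference of the 4. Its intensity ran from 0.212 to 0.351 in water, with a median of 0.278, and from 0.894 to 1.33 in the treated samples, with a median of 0.989. The groups did not overlap, and the dimmest treated sample, number 4, lay well above the brightest water sample, number 3. Among all probes 33.9% had groups that did not overlap in deposited intensity, 29.5% with the treated samples higher. Mean intensity was 0.287 ± 0.0518 (SD, n = 6) in the water group and 1.04 ± 0.165 (SD, n = 6) in the treated group. The log2 difference after quantile normalization was 1.08 (SE 0.12, 95% interval 0.82 to 1.33, adjusted p = 3.12e-05 by limma), which is 2.11-fold. This difference exceeded that of 95.4% of all probes and of 96.1% of the 691 singly annotated genes. The groups did not overlap after normalization either, so the difference was positive in 6 of 6 same-numbered pairs of samples. Across these pairs it ran from 0.67 for number 5 to 1.54 for number 6. On the deposited scale it was 1.63, which is 1.25 above the median of all probes. The gene moved from a rank above 66.7% of probes by mean intensity in water to a rank above 86.7% after MS with sucrose.

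CBL, the methionine pathway gene, did not pass the test, and its values in water differed between the sample numbers. Its intensity in water was 0.234, 0.265, 0.208 and 0.197 in samples 1 to 4 but 0.0947 and 0.104 in samples 5 and 6. After MS with sucrose it ran from 0.184 to 0.271, with a median of 0.220, and samples 5 and 6 were at 0.198 and 0.271, within the range of the others. The low values in water are thus those of an adjacent pair of numbers, and they lie close to the offset of the log scale. Mean intensity was 0.184 ± 0.0696 (SD, n = 6) in the water group and 0.224 ± 0.0386 (SD, n = 6) in the treated group, and the spread in water, 37.8% of the mean, was the widest of the 4 genes. The log2 difference was -0.38 after quantile normalization (SE 0.21, 95% interval -0.83 to 0.074, adjusted p = 0.179 by limma) and 0.25 on the deposited scale (SE 0.19, adjusted p = 0.309 by limma), so its sign depends on the scale. Within the adjacent numbers the normalized difference was -0.73 for numbers 1 and 2, -0.65 for 3 and 4, and 0.24 for 5 and 6. When samples 5 and 6 were left out of each group it was -0.68 and passed (limma, adjusted p = 0.00498). Over all alternatives the adjusted p of CBL ran from 0.00498 to 0.581. That setting was tried with the earlier results of these data known.

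AT-HF, the histidine synthesis gene, was the most even of the 4 in water. Its intensity there ran from 0.165 to 0.207, with a median of 0.188 and an SD of 9.10% of the mean. After MS with sucrose it ran from 0.290 to 0.472, with a median of 0.334, and sample 6 was the highest. The groups did not overlap in deposited intensity, as for 33.9% of all probes. Mean intensity was 0.187 ± 0.0170 (SD, n = 6) in the water group and 0.348 ± 0.0677 (SD, n = 6) in the treated group. On the deposited scale the gene rose by 0.69 (SE 0.10, adjusted p = 0.000167 by limma), and in 6 of 6 same-numbered pairs, as groups without overlap must. After quantile normalization the difference was 0.018 (SE 0.091, 95% interval -0.18 to 0.22, adjusted p = 0.914 by limma), with 3 pairs higher and 3 lower, and the groups overlapped. AT-HF ranked above 52.5% of probes by mean intensity in water and above 52.5% after MS with sucrose.

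APS4, for ATP sulfurylase, had the lowest difference of the 4 relative to the array, while its own mean intensity was nearly the same in both groups. The intensity ran from 0.189 to 0.300 in water, with a median of 0.263, and from 0.193 to 0.350 in the treated samples, with a median of 0.228. The groups overlapped, and sample 5 was the lowest in water and the highest after MS with sucrose. Mean intensity was 0.256 ± 0.0395 (SD, n = 6) in the water group and 0.251 ± 0.0570 (SD, n = 6) in the treated group. After quantile normalization APS4 fell by 0.69 on the log2 scale (SE 0.12, 95% interval -0.95 to -0.43, adjusted p = 0.000855 by limma), and on the deposited scale it was at -0.029 (SE 0.13, 95% interval -0.31 to 0.25, adjusted p = 0.889 by limma). It was lower in 5 of 6 same-numbered pairs on both scales, with number 5 as the exception at 0.028 after normalization and 0.70 on the deposited scale, where the 5 lower pairs ran from -0.38 to -0.024. Its rank by mean intensity went from above 62.9% of probes in water to above 40.0% after MS with sucrose. With adjacent numbers averaged, 3 against 3, APS4 passed after quantile normalization (adjusted p = 0.0280 by limma), where 21.8% of probes were called, 10.1% as higher and 11.7% as lower, but not with a replicate block added to the averages (limma, adjusted p = 0.0847). Over all alternatives its adjusted p ran from 0.000263 to 0.925.

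Which of these differences counts as a change depends on the scale, so the genes were compared under 4 of them. The median of all probes moved by 0.00431 after quantile normalization, by -0.011 with cyclic loess, by -0.29 when each sample was centred on its median, and by 0.38 on the deposited scale. Of all probes 36.2% were called with cyclic loess, 18% as higher and 18.2% as lower, and 51.1% with median centring, 14.2% as higher and 37.0% as lower. AT3G58610 was called higher under all 4, from 0.96 with median centring to 1.63 on the deposited scale. APS4 was called lower under 3 of them, at -0.69, -0.72 and -0.70 with quantile normalization, cyclic loess and median centring, and not on the deposited scale. AT-HF was called on the deposited scale only, with 0.017 under median centring and -0.00173 with cyclic loess. CBL was called under none of the 4; it was negative under 3 and positive on the deposited scale. Taken against the median of all probes on the deposited scale, AT3G58610 stood 1.25 above it, AT-HF 0.30 above, CBL at -0.13 and APS4 at -0.41. The order of the 4 genes was AT3G58610, AT-HF, CBL and APS4 with quantile normalization, cyclic loess and the deposited scale, the last of which fixes the order under median centring, though CBL was not separated from either neighbour in that order by the test of ratios that follows.

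**Figure D2:**
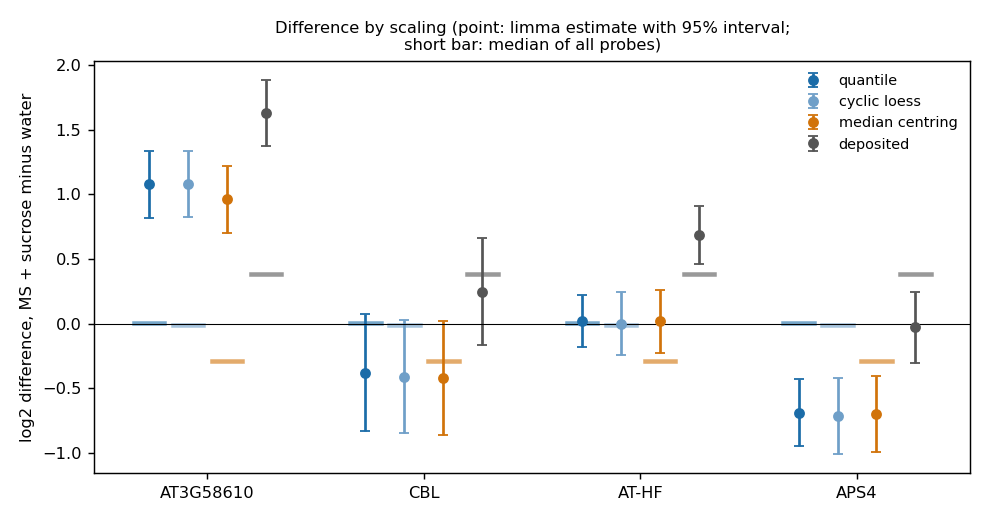
Log2 difference, MS with sucrose minus water, of the 4 genes (horizontal axis) under quantile normalization, cyclic loess, median centring and the deposited scale, as limma estimates with 95% intervals over 6 against 6 samples. Short bars mark the median of all 3439 probes under the same scale. The interval of AT3G58610 lies above 0 under each scale, from an estimate of 0.96 to one of 1.63, and that of APS4 reaches 0 on the deposited scale only.

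A ratio of a pair of genes within a sample does not move with a factor that multiplies the whole sample, apart from the offset, so the 6 pairs of members were compared on that measure. A ratio does not remove a shift that depends on intensity. Sample medians differed more between the groups than sample means did. Whether the shift was a factor of the whole sample or depended on intensity was not tested, so the ratios may still hold part of it. The value is the difference between the log2 changes of the pair on the deposited scale. The test was an exact two-sided permutation of the 12 samples, 6 against 6, with Benjamini-Hochberg adjustment over the 6 pairs and 0.00216 as the smallest p it can give. AT3G58610 changed more than each of the others, by 1.66 against APS4 (SE 0.18, interval 1.26 to 2.02), by 1.38 against CBL (SE 0.24, interval 0.86 to 1.90) and by 0.94 against AT-HF (SE 0.12, interval 0.68 to 1.19). In each of these the groups did not overlap. That alone gives the smallest p (adjusted p = 0.00433, exact permutation) and the same direction in 6 of 6 same-numbered pairs, which add nothing further. AT-HF changed by 0.72 more than APS4 (SE 0.12, interval 0.44 to 0.98, adjusted p = 0.00649, exact permutation), in 5 of 6 pairs. In this ratio water sample 5, at 0.098, was above the lowest treated sample, at 0.059, and the other water samples were below every treated one.

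The remaining pairs involve CBL, and neither passed. CBL changed by -0.44 relative to AT-HF (SE 0.22, interval -0.90 to 0.054, adjusted p = 0.101, exact permutation) and by 0.28 relative to APS4 (SE 0.21, interval -0.19 to 0.76, adjusted p = 0.216, exact permutation). These intervals include differences of the size found between AT-HF and APS4, so the data do not show that CBL moved like either. Without water sample 5 the difference between CBL and AT-HF was -0.57 and passed (adjusted p = 0.0208, exact permutation), and without numbers 5 and 6 it was -0.66. The adjusted p of this pair ran from 0.0208 to 0.377 over the alternatives. When the same-numbered pairs of samples were the unit, in an exact sign-flip test whose smallest p is 0.03125, the 3 pairs with AT3G58610 each reached that p (adjusted p = 0.0625), and AT-HF with APS4 had an adjusted p of 0.0938 by the exact sign-flip test. That test could pass the threshold after adjustment only if at least 4 of the 6 pairs reached its smallest p.

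**Figure D3:**
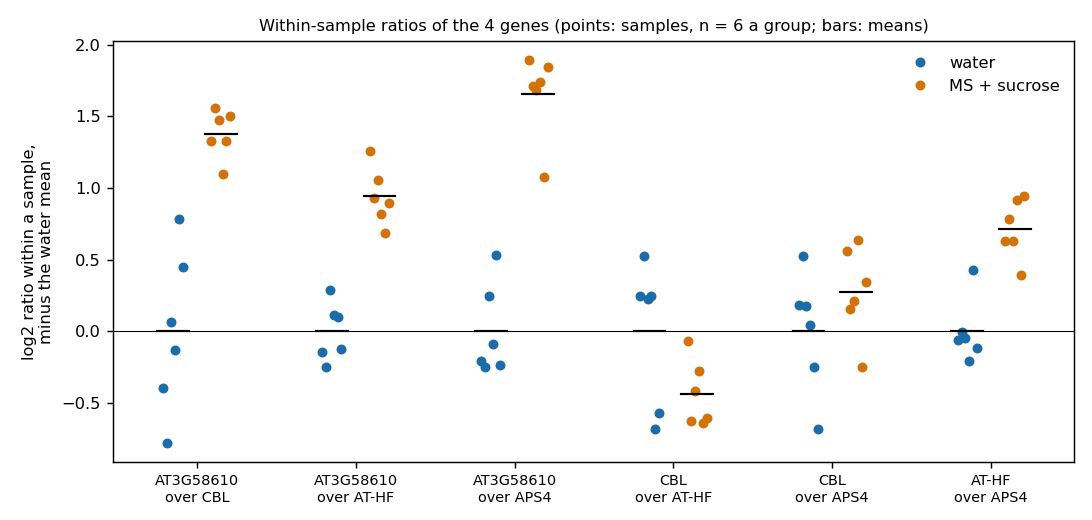
Log2 ratio of each pair of genes within a sample, from log2(intensity + 0.0718) on the deposited scale and shown minus its mean in water, for 6 water samples and 6 samples with MS and sucrose; bars are means. The 3 ratios with AT3G58610 on top separate the groups, by 0.94 to 1.66. Those of CBL to AT-HF, CBL to APS4 and AT-HF to APS4 overlap.

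The pathways around these enzymes were sparsely covered. Lists of 144 genes of amino acid synthesis and sulfate assimilation held 7 with a probe of their own, the 4 members and 3 others, and 9 more were on probes shared with other genes and are not named. Of these 7, 3 were called higher, 1 lower, and 3 did not pass after quantile normalization, with a median difference of 0.018. For all 691 genes with such a probe 37.0% were called, 20% higher and 17.1% lower, with a median of 0.022. On the deposited scale 4 of the 7 were called higher and 0 lower, where 52.5% of the 691 genes were called, 46.2% higher and 6.37% lower. The count on the deposited scale is near that background.

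AT3G23940, for dihydroxyacid dehydratase, acts directly after ketol-acid reductoisomerase in branched-chain amino acid synthesis, and it rose as well. Its intensity ran from 0.0704 to 0.103 in water and from 0.170 to 0.395 after MS with sucrose. The groups did not overlap, as for 33.9% of all probes, 29.5% with the treated samples higher. Mean intensity was 0.0841 ± 0.0131 (SD, n = 6) in water, near the offset, and 0.282 ± 0.0829 (SD, n = 6) in the treated group, a ratio of 3.35. The normalized difference was 0.59 (SE 0.14, adjusted p = 0.00636 by limma). It was positive in 6 of 6 same-numbered pairs, which follows from groups that did not overlap after normalization either. It was called under all 4 scales, from 0.48 with median centring to 1.15 on the deposited scale, and with adjacent numbers averaged (adjusted p = 0.0233 by limma). It missed the threshold when samples 3 and 4 were left out of each group (limma, adjusted p = 0.0577) and with a replicate block added to the averages (limma, adjusted p = 0.0549). Of the branched-chain list 2 genes were measured, AT3G23940 and the member AT3G58610, and both were called higher. Of the 691 genes 20% were called higher after quantile normalization and 46.2% on the deposited scale. The other 20 genes of the list had no named probe.

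The other 2 pathway genes gave less. AT5G10920, for argininosuccinate lyase of arginine synthesis, ran from 0.500 to 0.737 in water and from 0.870 to 1.74 after MS with sucrose, where samples 5 and 6 were the highest at 1.74 and 1.64. It rose by 0.50 (SE 0.16, adjusted p = 0.0326 by limma), but the call was lost when the sample number entered as a replicate block (adjusted p = 0.0590), with adjacent numbers averaged (adjusted p = 0.168), under median centring (adjusted p = 0.139) and without any 1 of water samples 1 to 5 or samples 5 and 6 of MS with sucrose (adjusted p = 0.0513 to 0.0699). AT3G53580, for diaminopimelate epimerase of lysine synthesis, was dim and uneven, from 0.0256 to 0.141 in water and from 0 to 0.223 after MS with sucrose. It had a normalized difference of -0.30 (SE 0.33, adjusted p = 0.511 by limma) and a value of 0 in sample 1 of MS with sucrose. Its difference was -0.099 without that sample and -0.45 without water sample 5, and it missed the threshold in both.

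**Figure D4:**
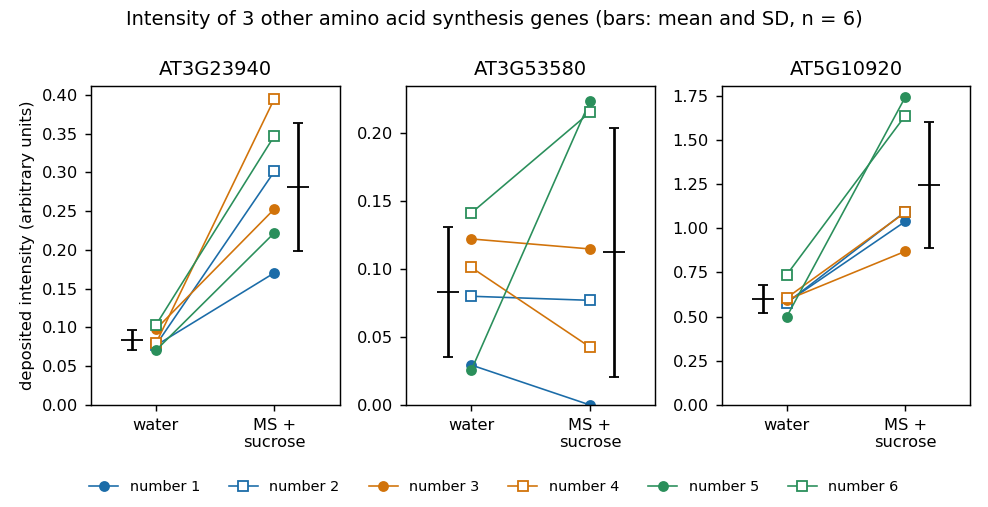
Deposited intensity (arbitrary units, linear axes from 0) of AT3G23940, AT3G53580 and AT5G10920 in 6 water samples and 6 samples with MS and sucrose, drawn as for the 4 genes, with mean and SD in black. AT3G23940 separates the groups at 0.0704 to 0.103 against 0.170 to 0.395, AT5G10920 is highest in treated samples 5 and 6, and AT3G53580 overlaps. Of all probes 29.5% separate the groups with the treated samples higher.

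Samples 5 and 6 stood out in several of these genes, so the adjacent numbers were also compared. The ratio of mean intensity, MS with sucrose over water, of CBL was 0.890 for numbers 1 and 2, 1.06 for 3 and 4, and 2.36 for 5 and 6. That of APS4 was 0.878, 0.789 and 1.30 in the same order, that of AT-HF 1.71, 1.79 and 2.06, and that of AT5G10920 1.84, 1.63 and 2.73. For AT3G58610 the order differed, at 4.51, 2.93 and 3.63. In each of these 5 genes, and in AT3G53580 (2.63 against 0.705), the ratio was higher for numbers 5 and 6 than for 3 and 4, and in AT3G23940 it was lower (3.28 against 3.66). What the numbers stand for is not stated, this comparison was made after the values were seen, and the part of the numbers in the results was not tested beyond the settings that average or leave them out.

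The profiles of the 4 genes over the 12 samples were set against those of the 690 other genes with a probe of their own. The measure was the root mean square distance of the normalized log2 values, each gene centred on its mean. Nearest to AT3G58610 were AT2G38550 at 0.20, AT2G19870 at 0.21 and AT2G46850 at 0.22, against a median distance of 0.62. Their normalized differences were 0.87, 1.11 and 1.26. Nearest to CBL were AT4G08630, DI21 and AT1G78620, at 0.25 each, with a median of 0.52. Their normalized differences were -0.24, -0.57 and -0.49, and DI21 and AT1G78620 were called lower (adjusted p = 0.0331 and 0.00491 by limma). APS4 was nearest to AGL103, of the MADS-box family, at 0.16, to AT1G78620 at 0.16 and to AT3G57440 at 0.18, with a median of 0.52. These had normalized differences of -0.66, -0.49 and -0.55, each called lower. For AT-HF the nearest genes were CML30, of the calmodulin-like family, at 0.086, AT1G76220 at 0.092 and ILA at 0.12, with a median of 0.38. AT1G76220 was listed at 0 in 10 of 12 samples, so that its flat profile holds no signal to compare. CML30 and ILA had normalized differences of 0.021 and -0.0070. Like AT-HF, these genes changed little after normalization, and the distance is computed from the same normalized values. None of the nearest genes of the 4 members is on the pathway lists. Just 7 list genes, the members included, had a probe of their own, so this absence shows little. Among the members the closest were CBL and APS4, at a distance of 0.37, and the farthest AT3G58610 and APS4, at 0.93. AT3G58610 and AT3G23940 were 0.37 apart, but AT3G23940 was nearer to AT5G10920, at 0.32, and to AT-HF, at 0.36.

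**Figure D5:**
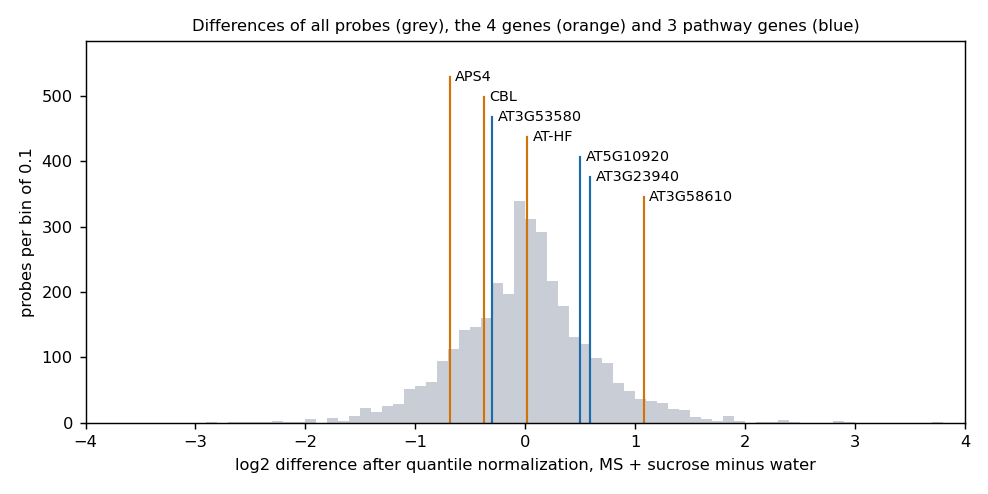
Number of probes per bin of 0.1 by log2 difference after quantile normalization, MS with sucrose minus water, for all 3439 probes (grey). Vertical lines mark the 4 genes (orange) and the 3 other pathway genes (blue). APS4 exceeds 11.8% of probes, CBL 23.9%, AT-HF 51.0% and AT3G58610 95.4%.

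Among all probes the differences spread to both sides of 0, and the 4 genes covered much of that range. APS4 had a higher normalized difference than 11.8% of probes and CBL than 23.9%, AT-HF stood in the middle at 51.0%, and AT3G58610 at 95.4%. On the deposited scale the same genes stood at 18.9%, 41.1%, 66.4% and 96.1% of all probes.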

How the data were processed

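The deposited intensity values, 1 per probe and sample for 3439 probes, are linear. No source used here says how the authors made or scaled them; 13.6% are exactly 0 and the highest share a ceiling of 100. Probe names came from the platform annotation, updated to TAIR10.1 symbols (690 of 692 single-gene probes matched); coordinates were not used. Values were used as log2(intensity + 0.0718), the offset being the 10th percentile of values above 0, quantile normalized because sample medians lay 0.76 apart, and fitted with limma 3.58.1 in R 4.3.3 (lmFit, eBayes with trend, two-sided, Benjamini-Hochberg over 3439 probes), without a filter. The fit was tested on simulated data. Permutation tests used scipy 1.17.1, and their intervals are the 95% ranges of shifts that the exact permutation test did not reject. Same-numbered samples deviated together from their group means (correlations of 0.174 to 0.390 over probes), so the numbers pair the samples; this comes from the data, not the labels. Adjacent numbers within a group also correlated (0.121 to 0.309), so errors that take 12 samples as independent may be too small. The genes named are the 4 members, the members of the pathway lists with a probe of their own and, for each member, the 3 nearest profiles. Members, lists and tests were chosen with earlier results of these data known. Alternatives were other scales, offsets, zeros as missing, a filter on dim probes, replicate blocks, averages of adjacent numbers, other variance models and samples left out. Averages on the other scales were added after seeing the data.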

Additional observations from a re-analysis of the deposited data

Results flagged for a closer look

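For the genes named above, 36 groups of 6 values were checked for a value far from the rest of its group, and 4 had one; chance gives about 1 in 20, or 1.8 groups. The ATP sulfurylase gene APS4 was lowest in water sample 5, at an intensity of 0.189 and a gap of 0.649 of the group's range on the normalized scale. Without that sample its difference was -0.77 (adjusted p = 0.000263 by limma). AT1G78620, near CBL and APS4 in profile, was lowest in sample 4 of MS with sucrose, at 0.744 and a gap of 0.749 of the range. AT1G76220 was above 0 in sample 6 of each group only, with intensities of 0.00736 (water) and 0.0437 (MS with sucrose), so its gap was the whole range (1) in both groups. Zeros fix that gap, so the chance rate does not hold for AT1G76220, and 4 groups against 1.8 do not show an excess.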

How the results depend on the processing

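AT3G58610 kept its direction and its call under all 33 alternatives, from 0.95 to 1.63. Leaving out 1 sample gave 1.002 to 1.14 for it, -0.51 to -0.28 for CBL, -0.051 to 0.059 for AT-HF and -0.77 to -0.64 for APS4, with no change of call. CBL gained a call at -0.68 without numbers 5 and 6, and AT-HF on the deposited scale at 0.69, for 12 samples and for averages of adjacent numbers. APS4 lost its call on the deposited scale at -0.029, for 12 samples and for averages, and at -0.69 with averages and a replicate block. Number as a replicate block, fixed or random, changed no call of the 4 genes; a random block was not run for the ratios. The cause of these changes was not tested.

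All probes gave 1289 calls, 751 with averages, 556 with averages and a replicate block, and 1138 to 1283 without 1 sample. Calls were higher in 48.4% of cases after quantile normalization, 49.7% with cyclic loess, 86.5% on the deposited scale and 27.7% with median centring. Of the 7 pathway genes, 4 were called, 1 with averages and a replicate block and 2 without numbers 3 and 4, where all probes gave 937.

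The ratios of AT3G58610 to CBL, AT-HF and APS4 (1.38, 0.94 and 1.66) and of AT-HF to APS4 (0.72) missed the threshold in the sign-flip test (replicate block). They also missed it without numbers 1 and 2 (1.06, 0.77, 1.47 and 0.70) or 3 and 4 (1.41, 1.05, 1.67 and 0.62), where 4 against 4 samples allow no p under 0.0286. Over the leave-out settings they ran from 1.06 to 1.67, 0.77 to 1.05, 1.47 to 1.83 and 0.62 to 0.82. CBL against AT-HF ran from -0.57 to -0.33 without 1 sample and passed without water sample 5 (-0.57) and without numbers 5 and 6 (-0.66). With adjacent numbers averaged no p under 0.1 is possible, and the ratios have values only.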
